A study of Homo sapiens with 47 samples.

Results

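The protein genes of the spliceosomal small nuclear ribonucleoprotein particles (snRNPs) were compared between EAF1-mutant and wild-type HEK293T cells. Members were chosen by gene symbol as proteins of the U1, U2, U4/U6, U5 and minor snRNPs and as the U2 auxiliary factor, the protein partners of the small nuclear RNAs (snRNAs). They numbered 47 of the 58395 genes counted. Each of the 47 symbols matched 1 counted gene, and all 47 were among the 28025 genes that passed edgeR's filter on low counts.

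RNA-seq of total RNA depleted of ribosomal RNA was made from HEK293T cells, a transformed line of human embryonic kidney origin, with 3 libraries of wildtype genotype and 3 of an EAF1-mutant line. EAF1 belongs to the little elongation complex, which acts with Mediator in the transcription of snRNA genes, and also to the super elongation complex. The comparison asks which RNAs differ when the surface of EAF1 that binds the Mediator subunit MED26 is altered. The EAF1-mutant line is a single cell clone made by CRISPR-mediated knock-in, with both EAF1 alleles carrying alanine substitutions in the C-terminal region that binds MED26. No other clone is among the libraries, so effects of the mutation and other features of the clone cannot be told apart. Library totals were 59137210, 52541541 and 55637032 counts for wild-type cells and 57198018, 53369621 and 66611451 counts for EAF1-mutant cells. Levels are given in CPM, counts scaled to library totals that were adjusted by edgeR's TMM method. The study states in general that it used biological replicates and that experiments other than ChIP-seq, PRO-seq, 4C-seq and in situ biotinylation-seq were repeated at least 3 times, which takes in RNA-seq. Whether the 3 libraries of a group are those repeats, from separate cultures, is not stated for these libraries, so p-values are read as measuring the spread between them. These are bulk samples, in which fewer cells of a type and less RNA per cell cannot be told apart.

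Each spliceosomal snRNP consists of an snRNA bound by a ring of Sm proteins, or by LSM proteins in the case of U6, and by proteins particular to that snRNP. U1 recognizes the start of the intron and U2 the branch point, and the U4/U6.U5 tri-snRNP then joins and is remodelled into the catalytic spliceosome. The minor spliceosome removes a rare class of introns with U11 and U12 in place of U1 and U2.

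The label of the cells was checked against marker genes. Of 8 genes known to be expressed in HEK293T cells, 7 reached a mean of 1 CPM in both groups, and the summed level of all 8 was 613, 625 and 639.8 CPM in the wild-type libraries and 392, 386 and 395 CPM in the EAF1-mutant libraries. VIM, the most abundant, encodes the intermediate filament protein vimentin and fell from 380.5 ± 8.97 CPM to 199 ± 4.00 CPM (SD, n = 3 each). NEFM, which encodes a neurofilament protein, fell from 62.4 ± 5.38 to 25.1 ± 0.480 CPM. The lower sum in EAF1-mutant cells rests on VIM and NEFM, since LHX1, NEFL, INA, CDH2 and EYA1 had log2 changes (the log2 of the fold change in EAF1-mutant against wild-type cells) from -0.17 to -0.03. PAX2 was under 1 CPM in both groups, with a log2 change of 0.33. Markers of endothelium, liver and skin epithelium were each under 1 CPM summed in every library. PTPRC, a gene expressed across leukocytes, had 0.0187 CPM in wild-type cells. In the fibroblast list, which summed to between 4.40 and 6.00 CPM, COL1A1 had a log2 change of 0.54 and COL3A1 and LUM had -2.18 and -3.53. The part of these marker differences in the results was not tested. EAF1 itself had 57.5, 58.4 and 56.5 CPM in the wild-type libraries and 19.7, 17.9 and 18.8 CPM in the EAF1-mutant libraries. Because the mutation replaces bases and leaves the RNA countable, the level of EAF1 is no check of the labels. For EAF1 protein, the paper reported little change in the mutant cells by western blot.

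Most snRNP protein genes were slightly lower in EAF1-mutant cells, and 5 of the 47 fell past the threshold of an adjusted p below 0.01 with a log2 change of more than 0.5 in either direction (quasi-likelihood test of edgeR, adjusted by Benjamini-Hochberg over all tested genes). These were LSM3, SNRPB2, SNRPE, SNRPB and SF3B6. The 5 are 10.6% of the members, while 9.36% of all tested genes fell past this threshold, so the share of members was near the background. None of the 47 was higher past the threshold, where 11.0% of all tested genes were. At an unadjusted p under 0.05, 8 members were higher, and DESeq2 called 0 higher past the same threshold. Among the 11418 tested genes whose mean reached 10 CPM, a level that every member exceeded, 11.9% were lower and 5.33% higher past the threshold.

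The median log2 change of the members was -0.13, with quartiles of -0.25 and -0.02, beside 0.01 with quartiles of -0.26 and 0.30 for all tested genes and -0.05 for tested genes whose mean reached 10 CPM. Against the wild-type mean, the members' median was -0.13, -0.17 and -0.13 in the 3 EAF1-mutant libraries. With library totals in place of TMM, the median of all tested genes moved to 0.13 and that of the members to -0.01, so the members lay below all tested genes by a like amount under both scalings, but the sign of small differences depends on the scaling. Without a limit on fold, 28 members fell (59.6%) and 8 rose (17.0%) at an adjusted p under 0.05 in edgeR, and 11 did not pass. With 1 or another library left out, 6 of the 28 (SNRPD1, SNRNP70, SNRPA, SNRPA1, SF3B5 and LSM5) and 3 of the 8 (SF3A1, SNRNP200 and PRPF31) no longer passed. Among the 11, U2AF1, PRPF8 and LSM8 passed as lower with 1 or another library left out. Over all tested genes 25.6% were lower and 25.9% higher by this rule, and over those whose mean reached 10 CPM 41.3% were lower and 28.4% higher. In 25 members every EAF1-mutant library lay below every wild-type library (53.2%), against 28.1% of all tested genes and 42.9% of those whose mean reached 10 CPM. In 6 members every EAF1-mutant library lay above (12.8%), against 29.2% and 30.6%. In all, 36 members had a log2 change below 0 (76.6%), against 48.7% of all tested genes and 56.5% of those whose mean reached 10 CPM.

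**Figure D1:**
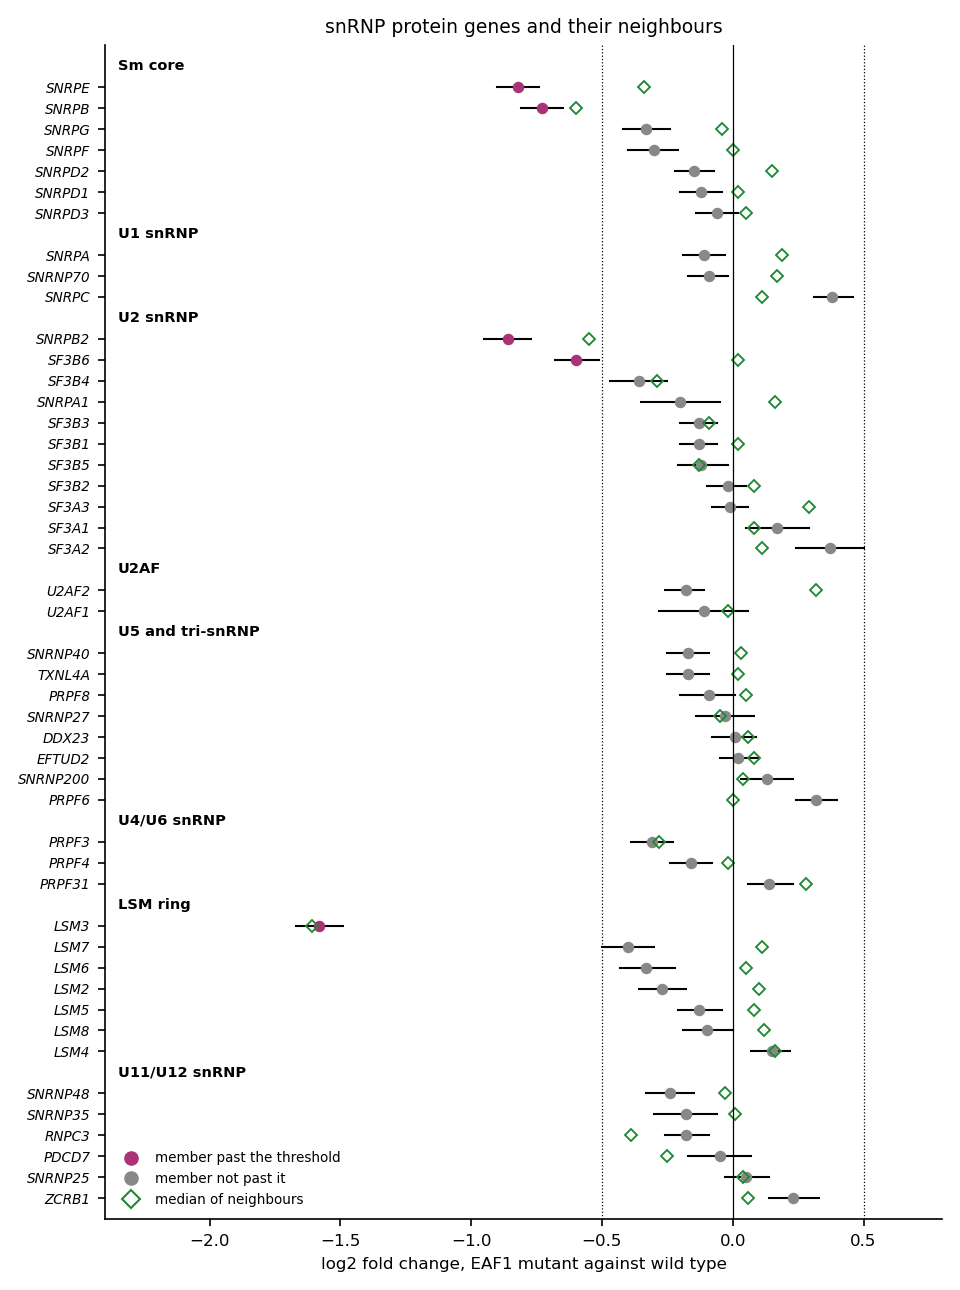
log2 change of each of the 47 members in EAF1-mutant against wild-type cells (filled points, bars are 95% confidence intervals, 3 libraries per group) grouped by role, with the median log2 change of the other tested genes that start within 5 Mb and reach a mean of 1 CPM (open diamonds). Dotted lines mark a log2 change of 0.5 in size, past which 5 members lie, and LSM3 at -1.58 sits on the median of its neighbours.

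All 7 Sm core genes had a log2 change below 0, with a median of -0.30, and 2 of them fell past the threshold. Of all tested genes 48.7% were below 0 and 9.36% lower past the threshold, and of those whose mean reached 10 CPM 56.5% and 11.9%. The Sm proteins form the ring that closes around the Sm site of U1, U2, U4 and U5 snRNA. SNRPE (chromosome 1, 203861599 to 203871152 in GRCh38), which encodes the ring protein SmE, had 144, 147 and 143 CPM in the wild-type libraries and 84.6, 78.8 and 82.1 CPM in the EAF1-mutant libraries. The groups did not overlap, and the EAF1-mutant libraries lay close together. The log2 change was -0.82 (standard error 0.04, adjusted p = 1.94e-14, edgeR). SNRPB (chromosome 20, 2461634 to 2470853), which encodes the alternatively spliced ring proteins of the SmB type, had 272, 243 and 266 CPM in wild-type against 155, 159 and 157 CPM in EAF1-mutant libraries. Here too every EAF1-mutant library was below every wild-type library, with a log2 change of -0.73 (standard error 0.04, adjusted p = 4.43e-13, edgeR).

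The remaining Sm genes moved less. SNRPG fell from 78.6 ± 2.48 to 62.6 ± 2.79 CPM (log2 change -0.33) and SNRPF from 73.5 ± 5.58 to 59.5 ± 0.379 CPM (log2 change -0.30), both under an adjusted p of 0.01 in edgeR and short of the fold limit. SNRPD1 and SNRPD2 had log2 changes of -0.12 and -0.15. SNRPD3 had 155 ± 2.96 CPM in wild-type against 149 ± 4.68 CPM in EAF1-mutant cells, with overlapping groups and an adjusted p of 0.195 (edgeR), and its sign turned positive with library totals in place of TMM. The 7 proteins enter the ring in equal number, while their mRNAs changed by unequal amounts, from -0.82 to -0.06 on the log2 scale.

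Levels of different genes were compared per length, as CPM per kilobase of all annotated exons (GENCODE). On this scale SNRPD2 was the most abundant Sm gene in wild-type cells at 100.4 ± 2.50 CPM per kilobase, followed by SNRPE at 69.4 ± 1.16 and SNRPB at 50.5 ± 3.02 (SD, n = 3). SNRPF was the lowest at 30.4 ± 2.31 CPM per kilobase, within the spread of SNRPD1 at 32.7 ± 1.03. In EAF1-mutant cells SNRPE was at 39.4 ± 1.40 CPM per kilobase, and SNRPB, at 30.5 ± 0.345, was within the spread of SNRPD1 at 30.1 ± 0.918. The order depends on the length used, since annotated exons include stretches that few transcripts hold. Per kilobase of the canonical transcript, a length chosen after seeing the data, wild-type SNRPD2 had 281, SNRPB 241, SNRPF 163 and SNRPD1 32.7 CPM per kilobase.

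**Figure D2:**
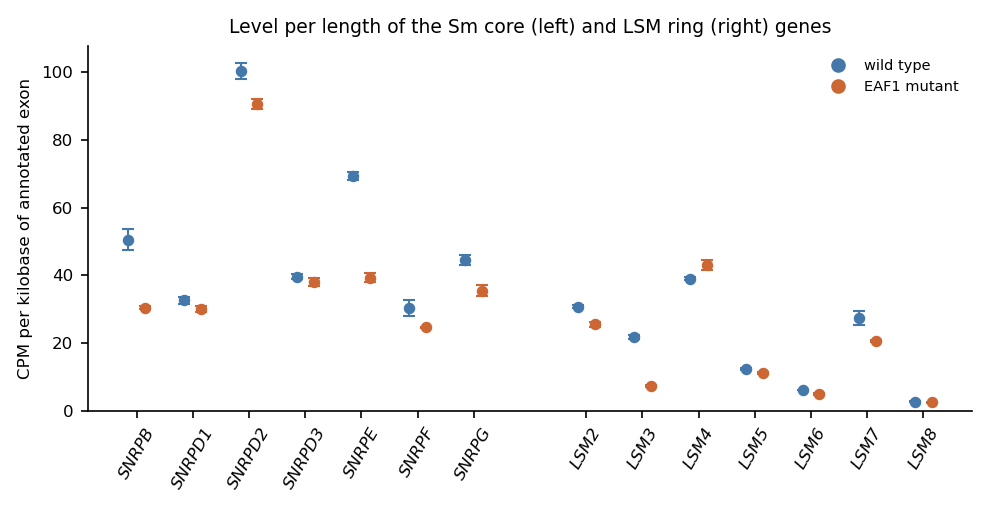
CPM per kilobase of annotated exon (vertical axis) of the 7 Sm core and 7 LSM ring genes, as mean and SD of 3 wild-type and 3 EAF1-mutant libraries. SNRPD2 is the highest at 100.4 in wild-type cells, and the gap between the groups is widest in proportion for LSM3, from 21.9 to 7.35.

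Of the U1-specific genes, SNRPC rose and the others were slightly lower. SNRPC (chromosome 6, 34757505 to 34773857) encodes the C protein of U1, which stabilizes the pairing of U1 with the start of the intron. It had 85.5, 87.8 and 88.7 CPM in the wild-type libraries and 117, 111 and 114 CPM in the EAF1-mutant libraries. All EAF1-mutant libraries were above all wild-type libraries, and the log2 change of 0.38 (standard error 0.04, adjusted p = 7.30e-09, edgeR) was the highest of the 47 members while short of the fold limit. SF3A2, at 0.37, was close to SNRPC. It was the higher without wild-type replicate 3 (0.45 against 0.38) and without EAF1-mutant replicate 1 (0.41 against 0.37). With library totals SNRPC was at 0.50 and passed the limit. SNRNP70, whose protein binds a stem of U1 snRNA, had a log2 change of -0.09 with overlapping groups, and SNRPA, whose protein binds another stem of U1, had -0.11. Both turned positive with library totals.

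Among the 11 U2 genes, 2 fell past the threshold, where 9.36% of all tested genes did, and 9 had a log2 change below 0, where 48.7% of all tested genes did. SNRPB2 (chromosome 20, 16729961 to 16742564), which encodes an RNA-binding protein particular to U2, had 70.0, 73.0 and 67.8 CPM in wild-type against 40.7, 37.7 and 37.7 CPM in EAF1-mutant libraries. The groups were far apart relative to their spread, with a log2 change of -0.86 (standard error 0.04, adjusted p = 8.43e-14, edgeR). SNRPA1, which encodes its partner protein in U2, had 41.0, 56.1 and 55.0 CPM in wild-type against 42.2, 45.3 and 44.8 CPM in EAF1-mutant libraries, so that 1 wild-type library lay below all EAF1-mutant libraries and the groups overlapped. Its log2 change of -0.20 moved to -0.35 without that library and to -0.13 without wild-type replicate 2 (adjusted p = 0.135, edgeR). SF3B6 (chromosome 2, 24067586 to 24076373) encodes the small SF3b protein that lies near the branch point. It had 104, 106 and 105 CPM in wild-type against 73.4, 66.1 and 68.6 CPM in EAF1-mutant libraries. The groups did not overlap, and the log2 change was -0.60 (standard error 0.04, adjusted p = 1.89e-11, edgeR). With library totals it was -0.48 and short of the fold limit.

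The other SF3b genes fell less than SF3B6. SF3B1, which encodes the scaffold of SF3b, had a log2 change of -0.13, and so did SF3B3, which encodes another large scaffold protein. SF3B4, an RNA-binding subunit, had -0.36, SF3B5 had -0.12, and SF3B2 had -0.02 with overlapping groups. In SF3a, whose proteins join SF3b on U2, SF3A2 rose from 24.8 ± 2.95 to 32.0 ± 1.69 CPM (log2 change 0.37, adjusted p = 2.62e-05, edgeR), SF3A1 had 0.17 with overlapping groups, and SF3A3 had -0.01. The value of SF3A1, counted among the 8 that rose, was 0.06 without wild-type replicate 1 (adjusted p = 0.283, edgeR). SF3A3 and SF3B2 turned positive with library totals.

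The U2 auxiliary factor reads the end of the intron, U2AF2 at the pyrimidine tract and U2AF1 at the final dinucleotide. U2AF2 (chromosome 19, 55654146 to 55674716) had 226, 213 and 223 CPM in wild-type against 196, 194 and 193 CPM in EAF1-mutant libraries. Every EAF1-mutant library was below the wild-type libraries, with a log2 change of -0.18 (adjusted p = 1.37e-04, edgeR). U2AF1 (chromosome 21, 43092956 to 43107570) had 73.9, 94.7 and 74.6 CPM in wild-type against 67.4, 70.0 and 87.6 CPM in EAF1-mutant libraries. These values overlapped, with 1 library of each group well above the others, and the log2 change was -0.11 (95% confidence interval -0.28 to 0.06, adjusted p = 0.273, edgeR). RefSeq lists a further copy of U2AF1 on chromosome 21, and how reads were shared between the copies is not stated in the sources, so the counts of U2AF1 are uncertain. Without the higher of the wild-type libraries its log2 change was 0.01. Without the higher of the EAF1-mutant libraries, replicate 3, it was -0.24 (adjusted p = 0.00937, edgeR).

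The 8 genes of U5 and the tri-snRNP had a median of -0.01 and none passed the threshold. Of all tested genes 9.36% were lower and 11.0% higher past it, and of those whose mean reached 10 CPM 11.9% and 5.33%. PRPF6 (chromosome 20, 63981132 to 64033100), whose protein bridges U5 and U4/U6, had 98.4, 92.9 and 97.1 CPM in wild-type against 120.3, 116 and 123 CPM in EAF1-mutant libraries. The EAF1-mutant libraries were all above, with a log2 change of 0.32 (standard error 0.04, adjusted p = 2.52e-07, edgeR). PRPF8, the protein at the heart of the catalytic center, had -0.09 with overlapping groups. The helicase gene SNRNP200 had 0.13 and the GTPase gene EFTUD2 had 0.02, both with overlapping groups. Without wild-type replicate 1, SNRNP200 moved to 0.05 (adjusted p = 0.346, edgeR) and PRPF8 to -0.19 (adjusted p = 4.58e-04, edgeR). SNRNP40 and TXNL4A, 2 smaller U5 proteins, each had -0.17 with groups apart. DDX23, a helicase that prepares the exchange of U1 for U6, had 0.01 and SNRNP27, a tri-snRNP protein, -0.03, both with overlapping groups. PRPF8 and SNRNP27 turned positive with library totals.

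In the U4/U6 particle, PRPF3 (chromosome 1, 150321479 to 150353233) had 98.4, 93.7 and 97.7 CPM in wild-type against 79.1, 76.6 and 78.3 CPM in EAF1-mutant libraries. These groups were apart, with a log2 change of -0.31 (standard error 0.04, adjusted p = 2.90e-07, edgeR). Its binding partner PRPF4 had -0.16. PRPF31, which binds the stem loop of U4 snRNA, had 0.14 and, without wild-type replicate 2, 0.09 (adjusted p = 0.0504, edgeR), and 31.3% of its exon bases are shared with exons on the opposite strand.

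The LSM ring binds the end of U6 snRNA, and all but LSM8 of its proteins are shared with a cytoplasmic ring that acts in mRNA decay. Of its 7 genes, 6 had a log2 change below 0, where 48.7% of all tested genes and 56.5% of those whose mean reached 10 CPM did, and LSM3 fell furthest of all 47 members. LSM3 (chromosome 3, 14178817 to 14201122) had 72.4, 76.0 and 72.5 CPM in the wild-type libraries and 25.2, 25.5 and 23.3 CPM in the EAF1-mutant libraries. No EAF1-mutant library came near the wild-type range. The log2 change was -1.58 (standard error 0.04, 95% confidence interval -1.67 to -1.49, adjusted p = 2.86e-18, edgeR), which leaves 33.5% of the wild-type level. The other genes of the ring had log2 changes of -0.40 for LSM7, -0.33 for LSM6, -0.27 for LSM2, -0.13 for LSM5, -0.10 for LSM8 and 0.15 for LSM4. Only for LSM8, among these, did the libraries of the groups overlap, and its sign turned positive with library totals. Per kilobase of annotated exon, LSM3 went from 21.9 ± 0.605 to 7.35 ± 0.353 CPM, beside 12.3 ± 0.309 and 11.2 ± 0.347 CPM for LSM5. Per kilobase of the canonical transcript, wild-type LSM3 had 21.9 and LSM5 26.0 CPM, so which of them is higher in wild-type cells depends on the length used. LSM8 was the lowest of the ring at 2.70 ± 0.0818 CPM per kilobase in wild-type cells, over 17.3 kb of annotated exon.

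**Figure D3:**
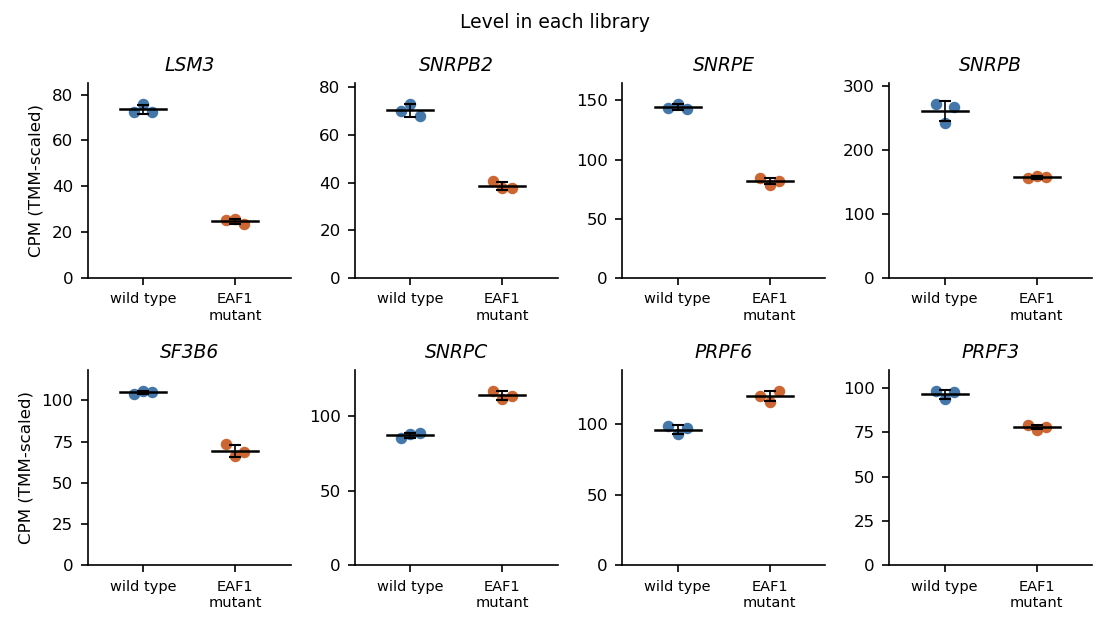
Level in each of 3 wild-type and 3 EAF1-mutant libraries (points, TMM-scaled CPM on an axis from 0), with the mean and SD as bars, for the 5 members past the threshold and for SNRPC, PRPF6 and PRPF3, which have the largest change in their role groups. In none of the 8 panels do the groups overlap, but these genes were chosen by the size of their change. Over all tested genes, every EAF1-mutant library lay below every wild-type library in 28.1% and above in 29.2%. Of tested genes whose mean reached 10 CPM, the shares were 42.9% and 30.6%.

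The 6 genes particular to the minor U11/U12 snRNP had a median of -0.11, and none passed the threshold. Past it lay 9.36% lower and 11.0% higher of all tested genes, and 11.9% and 5.33% of those whose mean reached 10 CPM. SNRNP48 (chromosome 6, 7590198 to 7611967), whose protein belongs to the U11 part of the particle, had 84.4, 86.6 and 82.4 CPM in wild-type against 75.5, 67.9 and 71.0 CPM in EAF1-mutant libraries. Its EAF1-mutant libraries were all lower, with a log2 change of -0.24 (standard error 0.04, adjusted p = 4.03e-05, edgeR). ZCRB1 had 0.23 in the other direction, with groups apart. SNRNP35 and RNPC3, which encodes the protein that links U11 and U12, each had -0.18. SNRNP25 had 0.05 and PDCD7 had -0.05, both with overlapping groups, and PDCD7 turned positive with library totals. SNRNP35 shares more of its exon bases than any other member, with RILPL1 on the opposite strand.

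The fall of LSM3 had the size of that of its neighbours. Of the 87 other tested genes that start within 5 Mb of LSM3 and reach a mean of 1 CPM, 85 had a log2 change below 0 and 73 were lower past the threshold, with a median of -1.61. EAF1 is one of these genes and had -1.61. The nearest named protein-coding genes on either side that reach 1 CPM, a choice made after seeing the data, were XPC, which encodes a DNA damage sensor, with 53.1 CPM in wild-type against 16.9 CPM in EAF1-mutant cells (log2 change -1.65, adjusted p = 4.22e-18, edgeR), and SLC6A6, which encodes a taurine transporter, with 22.4 and 4.75 CPM (log2 change -2.23, adjusted p = 2.92e-18, edgeR). Minus the median of these neighbours, the log2 change of LSM3 was 0.03. Whether the EAF1 mutation or another feature of the clone lowered this stretch of chromosome 3 cannot be told apart here.

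Both members on the short end of chromosome 20 also lay among lower genes. Around SNRPB, 71 of 75 neighbours were below 0, with a median of -0.60. The nearest protein-coding genes with a symbol that reach a mean of 1 CPM, ZNF343 and STK35, had -0.68 and -0.69. Around SNRPB2, 39 of 45 neighbours were below 0, with a median of -0.55. The nearest such genes on either side, KIF16B and BFSP1, had -0.55 and -0.28, smaller falls than the -0.86 of SNRPB2. PRPF6, at the other end of the chromosome, had neighbours with a median of 0.00. On chromosome 1, the neighbours of SNRPE had a median of -0.34 over 81 genes, of which 73 were below 0. ZBED6 and SOX13, the nearest such genes on either side of SNRPE, had -0.14 and -0.13. PRPF3 and SF3B4, which lie close to each other on that chromosome, had neighbours with medians of -0.28 and -0.29, near their own -0.31 and -0.36. SF3B6 differed from its surroundings, with a median of 0.02 over 88 neighbours and values of 0.06 for FKBP1B and 0.34 for FAM228B beside it.

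With the median of the neighbours at a mean of at least 1 CPM subtracted, a measure chosen after seeing the data and given with no test, 3 members were lower by more than 0.5 on the log2 scale. These were SF3B6 at -0.62, LSM7 at -0.51 and U2AF2 at -0.51, of which 1 is among the 5 past the main threshold. No share of all tested genes is given on this measure, so the count is not compared with a background. SNRPE was at -0.48, SNRPB2 at -0.31 and SNRPB at -0.13. The median over the members was -0.14 on this measure, beside -0.13 without it. The sign turned in 9 members, to 0.03 for LSM3, 0.21 for RNPC3, 0.20 for PDCD7, 0.02 for SF3B5 and SNRNP27, -0.13 for PRPF31, -0.05 for DDX23 and EFTUD2, and -0.01 for LSM4. LSM7 and U2AF2 lie on chromosome 19, where neighbours had medians of 0.11 and 0.32.

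**Figure D4:**
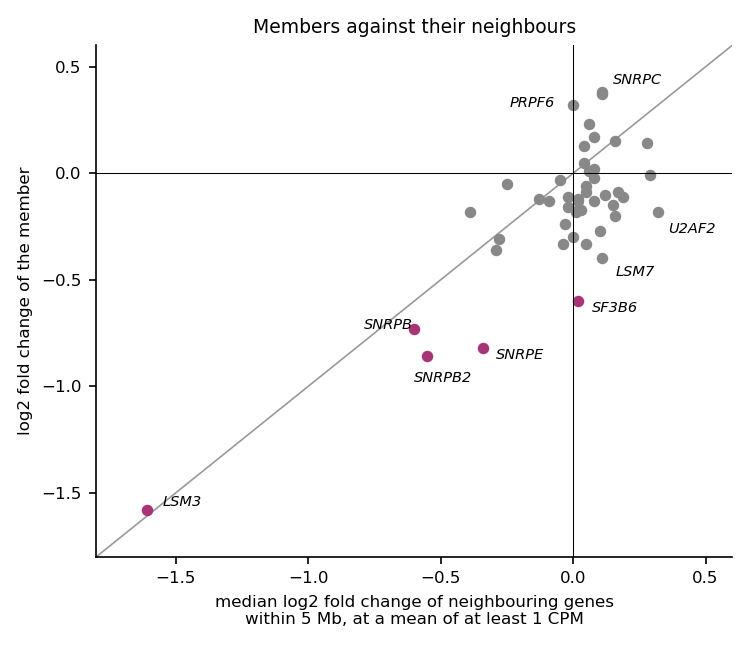
log2 change of each member (vertical axis) against the median log2 change of the other tested genes starting within 5 Mb whose mean reached 1 CPM (horizontal axis). On the diagonal, where LSM3 lies at the lower left, a member moved as its neighbours did, and SF3B6, at -0.60 with neighbours at 0.02, lies furthest below the diagonal.

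Pseudogenes and overlapping genes limit some of these counts. The annotation holds 70 pseudogenes named for 17 of the members, and for 6 members their summed CPM exceeded 1% of the parent's. SNRPE had 10 such copies with a summed level of 10.3% of its own, which went from 14.8 to 8.65 CPM, in the direction of the parent. The 20 copies of SNRPG summed to 7.89% of its level and went from 5.91 to 5.23 CPM. With the copies added to the parent, the log2 ratio of means was -0.81 for SNRPE and -0.32 for SNRPG. SNRPN, a paralog of SNRPB that is imprinted, had 5 counts in 1 wild-type library and 0 in the others. It shares its annotated exons with SNURF, which had the same counts. How reads over shared exons were treated is not stated, so these counts do not measure the level of SNRPN. Besides PRPF31 and SNRNP35, 3 members shared at least 10% of exon bases with another gene on the same strand, RNPC3 with AMY2B (18.9%), SNRPD3 (14.0%) and SNRNP27 with MXD1 (12.5%).

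The promoters of the members were searched for 5 motifs. The letters CCGGAA were in all 4 genes past the threshold that could be examined, and in 20 of the 40 members examined. SNRPE was not examined, since its window in the RefSeq table lies at another start than that of the canonical transcript. RefSeq promoter windows on GRCh38.p14 matched 42 members, and for 40 of them a window lay at the start of the canonical transcript, including SNRPB, SNRPB2, SF3B6 and LSM3. In the 250 bases before the start, the letters CCGGAA on either strand, the core that ETS family factors bind, occurred in 20 of the 40 members and in 14.5% of all 34943 windows. All 4 of the lower members with a window held it. GGGCGG on either strand, the core of the GC box, occurred in 25 of the 40 members (62.5%) and 42.5% of all windows. CCAAT occurred in 14 of the members and 32.0% of all windows, CACGTG in 3 and 6.32%, and TATAAA in 1 and 10.8%. These 5 motifs were searched on both strands, and a match is a description of letters, not of a bound site. The members' windows had a median of 62.0% G and C, against 58.0% over all windows. The stretches of these windows that hold CCGGAA in full and overlap no annotated exon are given here from 5′ to 3′ on the strand of the gene, with the ETS core and the GC box core, on either strand, in capitals, at chr3:14178622-14178816 (plus strand) for LSM3, chr2:24076374-24076525 (minus strand) for SF3B6 and chr20:16729881-16729960 (plus strand) for SNRPB2.
LSM3: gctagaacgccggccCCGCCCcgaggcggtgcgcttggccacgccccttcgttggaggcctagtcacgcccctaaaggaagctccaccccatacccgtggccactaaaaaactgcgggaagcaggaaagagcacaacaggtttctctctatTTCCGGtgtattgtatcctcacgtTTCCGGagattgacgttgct
SF3B6: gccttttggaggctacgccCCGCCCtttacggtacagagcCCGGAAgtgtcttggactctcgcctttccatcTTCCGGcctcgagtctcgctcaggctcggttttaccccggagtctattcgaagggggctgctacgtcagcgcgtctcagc
SNRPB2: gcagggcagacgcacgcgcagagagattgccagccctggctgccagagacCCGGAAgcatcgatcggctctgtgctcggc
The LSM3 stretch is the whole of the 195 bases between the start of LSM3 and that of XPC, which is read from the other strand and fell by a like amount. The SF3B6 stretch is likewise the whole of the 152 bases between SF3B6 and FAM228B, which is read from the other strand and had a log2 change of 0.34 while SF3B6 had -0.60. CCGGAA or its reverse complement is present 2 times in the LSM3 stretch, 2 times in the SF3B6 stretch and 1 time in the SNRPB2 stretch. For SNRPB, the stretch that overlaps no exon holds it 0 times and is not printed, while the full 250 bases hold it 2 times.

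The snRNAs that these proteins bind were read from the same libraries, with the limit that such short RNAs are poorly recovered in libraries of this kind and that reads of near-identical copies cannot be assigned. Of 24 snRNA genes listed, 23 matched a counted gene and 16 were tested with a mean of 1 CPM or more. Their median log2 change was -0.32, with 14 below 0, 6 lower and 1 higher past the threshold. Because that limit is on a mean over both groups, it leaves out genes that fell to low levels, and over all 22 tested snRNA genes 9 were lower and 1 higher past the threshold, with a median of -0.43. Of all tested genes 9.36% were lower and 11.0% higher past the threshold, and 48.7% were below 0. Those left out and lower were RNU5A-1 at -1.47, RNU5B-1 at -1.31 and RNU4ATAC at -1.12. The 5 U1 genes had -0.14 to -0.36 and RNU2-2P had -0.19, none past the fold limit. RNU1-1, the most abundant, had 879.6, 889 and 724 CPM in wild-type against 668, 684 and 710.2 CPM in EAF1-mutant libraries. RNU4-1 fell by 1.02 on the log2 scale, RNU4-2 by 0.49, RNU5D-1 by 1.06 and RNU5F-1 by 0.73. For the minor spliceosome, RNU11 had 3.82, 4.17 and 3.51 CPM in wild-type against 1.65, 1.49 and 1.78 CPM in EAF1-mutant libraries (log2 change -1.22). RNU12 had 6.22, 5.48 and 4.86 against 2.30, 2.75 and 2.52 CPM (log2 change -1.13). Both had groups far apart, while the 6 U11/U12 protein genes ranged from -0.24 to 0.23. Of U6, RNU6-8 had -0.51, RNU6-9 had 0.55, RNU6-1 had 0.29 and RNU6-2 had -0.08.

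Other genes of the splicing pathway were described from 7 lists written from textbook membership. The list nearest in function, 20 genes of Sm core assembly and snRNA import, had a median of -0.19 with 5 lower and 0 higher past the threshold. Beside this and the following counts stand 9.36% lower and 11.0% higher of all tested genes, and 11.9% and 5.33% of those whose mean reached 10 CPM. GEMIN2, a subunit of the SMN complex that loads the Sm ring onto snRNA, had 33.4, 34.4 and 32.7 CPM in wild-type against 17.5, 17.0 and 16.1 CPM in EAF1-mutant libraries. The log2 change was -0.99 (adjusted p = 4.05e-14, edgeR), where its neighbours had a median of -0.52. WDR77, part of the methylosome that modifies Sm proteins, fell from 177 ± 2.73 to 99.7 ± 3.36 CPM (log2 change -0.83) beside neighbours at -0.37. GEMIN5, which recognizes snRNA, had -0.66 beside neighbours at -0.04, and the SMN complex helicase gene DDX20 had -0.65 beside -0.37. At an unadjusted p under 0.05, 1 gene of this list was higher.

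Of 32 tested genes of other snRNP-associated proteins, with SNRPN not tested, 3 were lower past the threshold, a share near that of all tested genes, and the median was -0.04. LUC7L2, which associates with U1, had a log2 change of -0.78 beside neighbours at -0.66, PRPF38B had -0.56 beside -0.37, and RBM17, a splicing factor that contacts SF3b, had -0.56 beside -0.57. Among 20 genes of the PRPF19 complex and related proteins, 2 were higher past the threshold and the median was 0.02, with PPIE at 0.61 beside neighbours at 0.31 and XAB2 at 0.50 beside 0.11. The 14 genes of spliceosomal remodelling and the second step had a median of -0.02 and the 7 other LSM genes a median of 0.02, with none past the threshold in edgeR. Their largest changes were -0.38 in PRPF18 and 0.19 in LSM14A. At an unadjusted p under 0.05, 5 and 2 genes of these lists were lower and 2 and 2 higher, respectively.

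Genes of regulatory splicing factors also had medians below 0. Of 16 SR protein genes, none passed the threshold, 12 fell and 2 rose at an adjusted p under 0.05 in edgeR, and the median was -0.24. By that rule 25.6% of all tested genes were lower and 25.9% higher, and 41.3% and 28.4% of those whose mean reached 10 CPM. SRSF3 changed most, from 464 ± 15.9 to 361 ± 11.8 CPM (log2 change -0.36), beside neighbours at 0.22. Of 26 hnRNP genes, 3 were lower past the threshold and the median was -0.17. HNRNPC had -0.58 beside neighbours at -0.53, HNRNPDL had -0.54 beside 0.13, and HNRNPU, the most abundant of the 3, went from 1811 ± 74.2 to 1265 ± 10.8 CPM (log2 change -0.52) beside neighbours at -0.06. A difference in median between any of these lists was not tested.

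**Figure D5:**
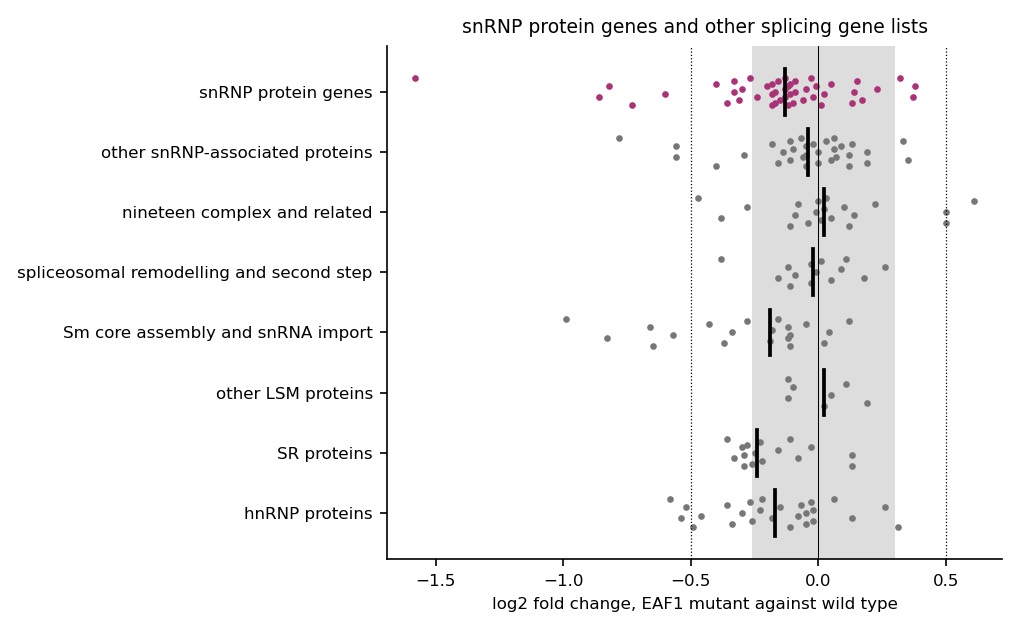
log2 change of each tested gene (points) of the 47 snRNP protein genes and of 7 other splicing gene lists, with the median of each list as a bar and the quartiles of all tested genes, -0.26 and 0.30, as a grey band and dotted lines at 0.5 in size. The medians run from -0.24 for SR proteins to 0.02 for the PRPF19 complex and the other LSM genes.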

How the data were processed

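RNA-seq counts of 3 wild-type and 3 EAF1-mutant HEK293T libraries were used, grouped by their labels. The authors trimmed paired-end reads (Trim Galore in the study's methods, Trimmomatic in the submitters' processing notes), aligned them by HISAT2 to GRCh38, assigned them to Ensembl genes by Rsubread and deposited the count of each gene. The library kit was stranded, but how strand and multi-mapped reads were treated is not stated in the sources, so overlapping genes and near-identical copies are uncertain. The series' ELL ChIP-seq table holds none of these genes and was not used, and its other assays were not analysed here.

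TMM factors, the filterByExpr filter and quasi-likelihood tests came from edgeR 4.0.16 (R 4.3.3), and p was adjusted by Benjamini-Hochberg over 28025 genes. The code was tested on simulated data. Standard errors were derived from the fold change and the F statistic. Symbols, positions and exon lengths came from GENCODE 44, which matched 57754 of the 58395 identifiers, and tables were made in Python 3.11.15 with numpy 2.4.6. The depth allowed genes under 1 CPM to be tested, and the common biological coefficient of variation was 4.11%.

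Every member was accounted for. Given in full were members past the threshold of an adjusted p below 0.01 with a log2 change of more than 0.5 in either direction, the member with the largest change in each role group, and members with a near-identical copy. Of other lists, at most 4 genes past the threshold were named, otherwise the 1 with the largest change, and snRNAs at a mean of at least 1 CPM. Members and lists were chosen with earlier results of these data known. The alternatives were DESeq2 1.42.0, library totals without TMM, leaving out each library, a replicate block, other filters and thresholds, subtraction of neighbouring genes, and leaving out members with copies.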

Additional observations from a re-analysis of the deposited data

How the results depend on the processing

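The 5 members past the threshold stayed past it with DESeq2, with either other filter on low counts, with the replicate block and without each library in turn, and 0 members were higher in each of these. With library totals without TMM, 4 members were lower and 1 higher, and the median was -0.01. Under that scaling 10 members short of the threshold changed sign, to 0.06 for SNRPD3, 0.02 for SNRNP70, 0.01 for SNRPA, 0.10 for SF3A3, 0.09 for SF3B2, 0.01 for U2AF1, 0.02 for PRPF8, 0.08 for SNRNP27, 0.02 for LSM8 and 0.06 for PDCD7. It raised every member alike, by 0.11 to 0.12, so small falls became small rises.

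Leaving out each library gave medians from -0.15 to -0.12, 5 to 5 members lower, 2790 to 2924 genes higher and 2493 to 2664 lower. Sign changes in single members were U2AF1 (range -0.24 to 0.01), DDX23 (-0.04 and -0.01), SNRNP27 (0.01) and PDCD7 (0.00) without a library, SF3A3 (0.01) with a filter of a mean of 1 CPM and DDX23 (0.00) with DESeq2.

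With no fold limit at an adjusted p under 0.05, 28 members were lower and 8 higher, with 7170 and 7250 of all tested genes. With a log2 fold change over 1 in size, 1 member and 698 genes were lower and 1452 genes higher. The median was -0.16 with neighbours within 5 Mb subtracted, by which 4 members were lower by over 0.5 (SNRPE and SF3B6 of the 5, and newly U2AF2 and LSM7), and which turned the sign of 7 (PRPF31 -0.16, RNPC3 0.13, PDCD7 0.16, LSM4 -0.04, EFTUD2 -0.08, DDX23 -0.09 and SF3B5 0.01), and -0.10 without members that have an annotated copy. Subtracting neighbours at a mean of at least 1 CPM, chosen after seeing the data, gave 3 members, SF3B6 of the 5 and newly U2AF2 and LSM7, and turned 9 signs, with LSM3 at 0.03. For neither subtraction is a share of all tested genes given.

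The replicate block gave 5 members lower, a median of -0.13 and 3055 genes higher and 2631 lower. Correlations of same-numbered libraries were -0.005, -0.017 and 0.010, so the numbers do not pair the libraries. With 3 libraries per group and 1 clone, p-values cover the spread between libraries only. Wild-type replicate 1 lay further from the other wild-type libraries than these lay from each other. The chi-square per degree of freedom between libraries was 8.018 and 8.043 with replicate 1 and 4.974 without it. Among EAF1-mutant libraries it was 5.273 and 6.127 with replicate 1 and 2.643 without it.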
